A study of Mus musculus with 11 samples.

Results

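The tumour necrosis factor (TNF) superfamily was examined in LSEC, the liver sinusoidal endothelial cells that line the hepatic capillaries. Its members were taken as all gene symbols of the Mouse Clariom S array that start with Tnfsf (ligands) or Tnfrsf (receptors), with Tnf, Lta, Ltb, Fas, Fasl, Cd70 and Ltbr. This gave 36 genes of 19505 with a symbol, 14 ligands and 22 receptors, and each was represented by 1 transcript cluster. Cd27, Tnfsf12 and Tnfsf13 were not analysed here.

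The knockout mice carried floxed Atg5 alleles with a Cre recombinase driven by the endothelial VE-cadherin promoter (5 arrays, titled autophagy deficient). The wild type mice carried the same floxed Atg5 alleles without Cre (6 arrays). Mice of both genotypes were 8 weeks old when a high fat diet of 2 weeks was given, per the labels, and every array was labelled as a biological replicate. The labels do not say how many animals stand behind a replicate, so the p-values speak only of the spread among these arrays. The series asks what loss of autophagy in the endothelium does during early high fat feeding, and Atg5 is needed to form autophagosomes.

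TNF ligands are mostly trimers made as membrane proteins, many of which are also shed, and they bind receptors with cysteine-rich extracellular repeats. Receptors with a death domain can assemble complexes that activate caspases, most others recruit TRAF adaptors that lead to NF-kappaB, and decoy receptors bind ligand without a full signal. In the liver, TNF is made in large part by macrophages, Fas and TRAIL receptors can trigger death of liver cells, and sinusoidal endothelium responds to TNF with adhesion molecules and chemokines.

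Some measures of the whole preparation bear on these genes. Atg5 read 7.48 to 7.90 on the log2 scale in knockout arrays and 7.38 to 7.59 in wild type arrays (difference 0.10, SE 0.10, exact permutation p = 0.245), so it was not lower in knockout arrays, and whether the array's probes lie in the floxed part is not known here. The 13 LSEC markers were above the array's antigenomic background on all arrays, with list means of 11.95 to 12.15 in knockout and 11.90 to 12.14 in wild type arrays. Of 14 measured macrophage markers, 13 met the study's rule as higher in knockout arrays, against 0.671% of all clusters. The rule asks for 1.5-fold or more, with an uncorrected p not above 0.05. The macrophage list mean ran from 7.66 to 10.29 in knockout and from 7.01 to 8.51 in wild type arrays. Hepatocyte markers were lower by the rule for 7 of 11, against 0.356% of all clusters. Their list means were 7.94 to 9.34 in knockout and 8.92 to 10.17 in wild type arrays. In limma 0 markers of either list passed an adjusted p of 0.05. Each of these 2 list means had an adjusted exact permutation p of 0.135 over 11 marker lists. In such bulk samples, fewer cells of a type and less RNA per cell cannot be told apart.

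Across the family the genotypes differed little. In the limma fit 1 of 36 members met the study's rule as higher in knockout arrays (2.78%), against 0.671% of all 22206 clusters in that direction and 1.03% in either direction. It was Tnfrsf11b, a decoy receptor. Of the members 0 met the rule as lower, against 0.356% of clusters. An unadjusted p of at most 0.05 was reached by 3 members (8.33%: Tnfrsf11b, Tnfsf15 and Cd70), near the 6.39% of all clusters. With Benjamini-Hochberg adjustment over all clusters, 0 members and 0% of clusters passed 0.05 in limma, and the members' adjusted p ran from 0.765 to 0.999. Positive log2 differences were found for 17 members and negative ones for 19, and the median was -0.01, against -0.02 over all clusters. The 95% interval lay within a fold of 1.5 in both directions for 25 members, and for the rest the interval reached a change of that size. The 25 include Cd70, Tnfsf8 and Tnfsf18, which read at or near background, so their intervals set no limit on a change. All 36 members had overlapping genotypes. That share was not counted over all clusters, so it is not read as a trait of the family.

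**Figure D1:**
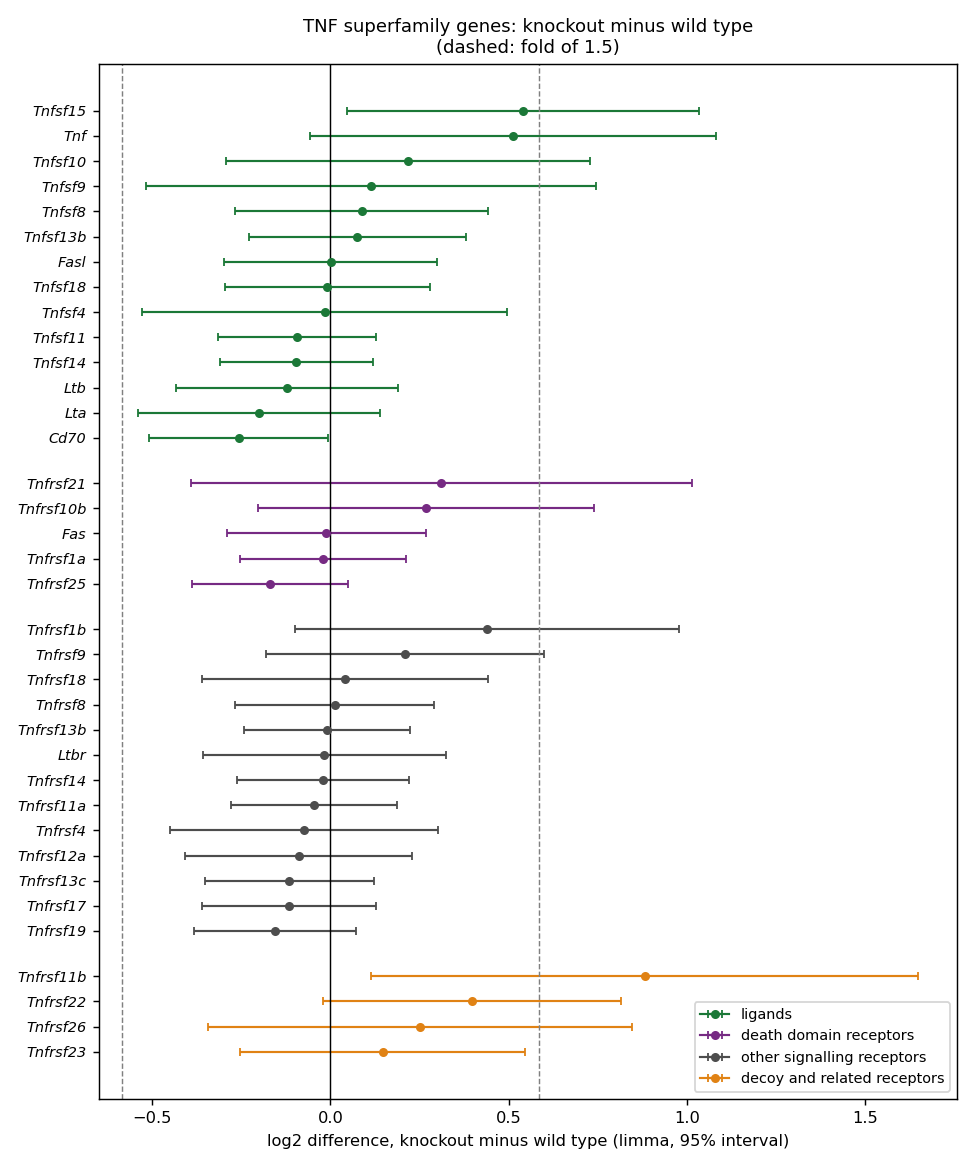
Log2 difference, knockout minus wild type, of the 36 TNF superfamily genes in 4 classes (x axis, log2 units; points are limma estimates and bars 95% intervals; dashed lines mark a fold of 1.5). Tnfrsf11b at 0.88 is the single point beyond a dashed line, and most points lie near 0; those of Cd70, Tnfsf8 and Tnfsf18 are differences at or near background.

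Of the 14 ligands, 0 met the rule, against 1.03% of all clusters, and their median log2 difference was -0.004. Tnfsf15, which encodes TL1A, a ligand that endothelial cells make and that binds the death receptor Tnfrsf25, came nearest. Its log2 level was 8.46, 7.78, 7.80, 9.09 and 8.41 in knockout arrays 1 to 5, against a lowest, median and highest of 7.27, 7.82 and 8.21 in wild type arrays. Knockout arrays 1, 4 and 5 lay above every wild type array, while arrays 2 and 3 lay within the wild type range. The difference was 0.54 (SE 0.23), a 1.45-fold higher level with an exact permutation p = 0.067 (n = 5 and 6). Without knockout array 4 it was 0.34, and it passed a fold of 1.5 without knockout array 2 (0.67), knockout array 3 (0.67) or wild type array 5 (0.63). Over all 25 alternative fits, some with covariates, the Tnfsf15 difference ran from 0.003 to 0.67. Tnfrsf25 itself read 7.28, 7.14, 7.47, 7.41 and 7.57 in knockout arrays, against 7.46, 7.53 and 7.66 (lowest, median, highest) in wild type arrays. Of its knockout arrays 4 lay below the wild type mean, and the difference was -0.17 (SE 0.10, exact permutation p = 0.048, n = 5 and 6), under a fold of 1.5. In limma the unadjusted p of Tnfrsf25 was 0.119 and its adjusted p 0.766.

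Tnf, the founding ligand of the family and an inducer of endothelial adhesion molecules, read 11.78, 11.75, 10.59, 10.95 and 11.08 in knockout arrays 1 to 5, against 10.01, 10.75 and 11.40 (lowest, median, highest) in wild type arrays. Knockout arrays 1 and 2 were the highest of all 11 arrays and the other 3 lay within the wild type range. The difference of 0.51 (SE 0.26) had an exact permutation p = 0.119 (n = 5 and 6) and did not meet the rule. It met the rule without knockout array 3 (0.67) or wild type array 2 (0.65), and was 0.37 without knockout array 1 or wild type array 3. The macrophage marker mean was 8.655, 10.288, 7.662, 8.061 and 8.908 in knockout arrays 1 to 5. With the macrophage mean as a covariate the Tnf difference was 0.001 (SE 0.27), and with the hepatocyte mean 0.83 (SE 0.33). The macrophage and hepatocyte means themselves differed by 1.25 and -0.85, knockout minus wild type. These fits therefore cannot tell the part of those cells from genotype, and the part of other cell types in the Tnf difference was not tested.

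Tnf lies between the lymphotoxin genes Ltb and Lta, with no other protein-coding gene between them in the RefSeq table of GRCm38.p6. Lymphotoxin alpha acts as a soluble trimer on the TNF receptors, and with lymphotoxin beta as a membrane complex on Ltbr. The differences of these neighbours between genotypes were not tested against one another. The 250 bases before each gene's start are shown, 5′ to 3′ on the strand of the gene. They come from RefSeq (GRCm38.p6), and capitals mark a match to the NF-kappaB consensus (kappaB, searched on both strands) in Ltb and to the TATA box (TATAAA, gene strand) in Tnf and Lta. No match of one motif overlapped the other.
Ltb, chr17:35194257-35194506, plus strand: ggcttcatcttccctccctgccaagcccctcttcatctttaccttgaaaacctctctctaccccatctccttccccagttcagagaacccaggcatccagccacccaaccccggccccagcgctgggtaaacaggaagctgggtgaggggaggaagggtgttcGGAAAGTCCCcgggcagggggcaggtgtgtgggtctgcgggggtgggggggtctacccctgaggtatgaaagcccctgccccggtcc
Tnf, chr17:35202008-35202257, minus strand: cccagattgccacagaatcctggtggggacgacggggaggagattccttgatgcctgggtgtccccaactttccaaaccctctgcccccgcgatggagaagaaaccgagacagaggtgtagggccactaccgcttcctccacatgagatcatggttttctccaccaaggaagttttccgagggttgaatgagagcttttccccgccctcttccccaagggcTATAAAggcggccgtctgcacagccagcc
Lta, chr17:35205352-35205601, minus strand: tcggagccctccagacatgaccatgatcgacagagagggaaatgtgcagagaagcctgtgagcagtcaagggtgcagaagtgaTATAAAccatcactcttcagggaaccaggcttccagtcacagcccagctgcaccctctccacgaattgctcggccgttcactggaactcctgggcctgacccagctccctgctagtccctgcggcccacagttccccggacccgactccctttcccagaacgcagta

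In these windows the Tnf match starts 29 bases before the gene start, the Lta match 167 bases and the Ltb match 87 bases before it. A kappaB match occurred in 3.9% of 32851 mouse promoter windows of this length and in 3 of the 33 windows of the 29 members found in the table. A TATA box match occurred in 7.59% of all windows and in 4 of the 33. These are matches of letters only, and a window without one says nothing of the factor. The array values of Lta were 7.60, 7.80, 7.58, 7.88 and 8.08 in knockout arrays, against 7.59, 8.05 and 8.37 (lowest, median, highest) in wild type arrays. Lta thus stayed within the wild type range apart from knockout array 3, just below it, with a difference of -0.20 (SE 0.16). Ltb read 6.61, 6.27, 5.95, 6.35 and 6.33 in knockout arrays and 6.06, 6.47 and 6.68 (lowest, median, highest) in wild type arrays. Its difference was -0.12 (SE 0.14), with 4 of 5 knockout arrays below the wild type mean. The 3 neighbours therefore stood at 0.51, -0.20 and -0.12, none of them past the rule.

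Tnfsf10 encodes TRAIL, which binds Tnfrsf10b and can trigger apoptosis. It read 10.23, 10.08, 9.97, 9.61 and 9.87 in knockout arrays, against 9.05, 9.82 and 10.35 (lowest, median, highest) in wild type arrays. All knockout arrays lay inside the wider wild type range, and the difference was 0.22 (SE 0.24). Fasl, the ligand of Fas on cytotoxic lymphocytes, read 6.11, 6.26, 6.36, 5.91 and 6.07 in knockout arrays and 5.87, 6.16 and 6.46 (lowest, median, highest) in wild type arrays. The group means were both 6.14, a difference of 0.0003 (SE 0.14, 95% interval -0.30 to 0.30). T and NK cell markers gave 0 calls among 11, against 1.03% of all clusters. Their list means were 5.45 to 6.45 in knockout and 5.39 to 6.05 in wild type arrays.

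Tnfsf13b encodes BAFF, a survival factor of B cells, and Tnfsf11 encodes RANKL, which drives osteoclast formation. Tnfsf13b read 6.23, 6.52, 6.10, 6.33 and 6.53 in knockout arrays, against 5.91, 6.27 and 6.67 (lowest, median, highest) in wild type arrays. Tnfsf11 read 5.39, 5.66, 5.64, 5.63 and 5.78 in knockout arrays, against 5.56, 5.68 and 5.86 in wild type arrays. The genotypes overlapped for both, apart from knockout array 1 just below the wild type range of Tnfsf11, with differences of 0.08 (SE 0.14) and -0.10 (SE 0.10).

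Cd70, the ligand of CD27, read 3.22, 3.65, 3.74, 3.54 and 3.57 in knockout arrays and 3.56, 3.81 and 3.94 (lowest, median, highest) in wild type arrays. Every one of these values lay below the mean of the antigenomic background probes of its array (4.67 to 5.17), so Cd70 had only an upper bound in both genotypes, and no fold is given although its unadjusted p was below 0.05. The same held for Tnfsf8, the CD30 ligand. Tnfsf18, the GITR ligand, was above that background on 1 of 11 arrays, and Tnfsf4, the OX40 ligand, on 8. The other 32 members were above it on all 11 arrays.

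Tnfsf9, the 4-1BB ligand of T cell costimulation, had a difference of 0.11 (SE 0.29), and Tnfsf14, which encodes LIGHT, a ligand of Ltbr and Tnfrsf14, had -0.10 (SE 0.10). Tnfsf4 had a difference of -0.02 (SE 0.24), and none is given for Tnfsf8 and Tnfsf18, at or near background.

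**Figure D2:**
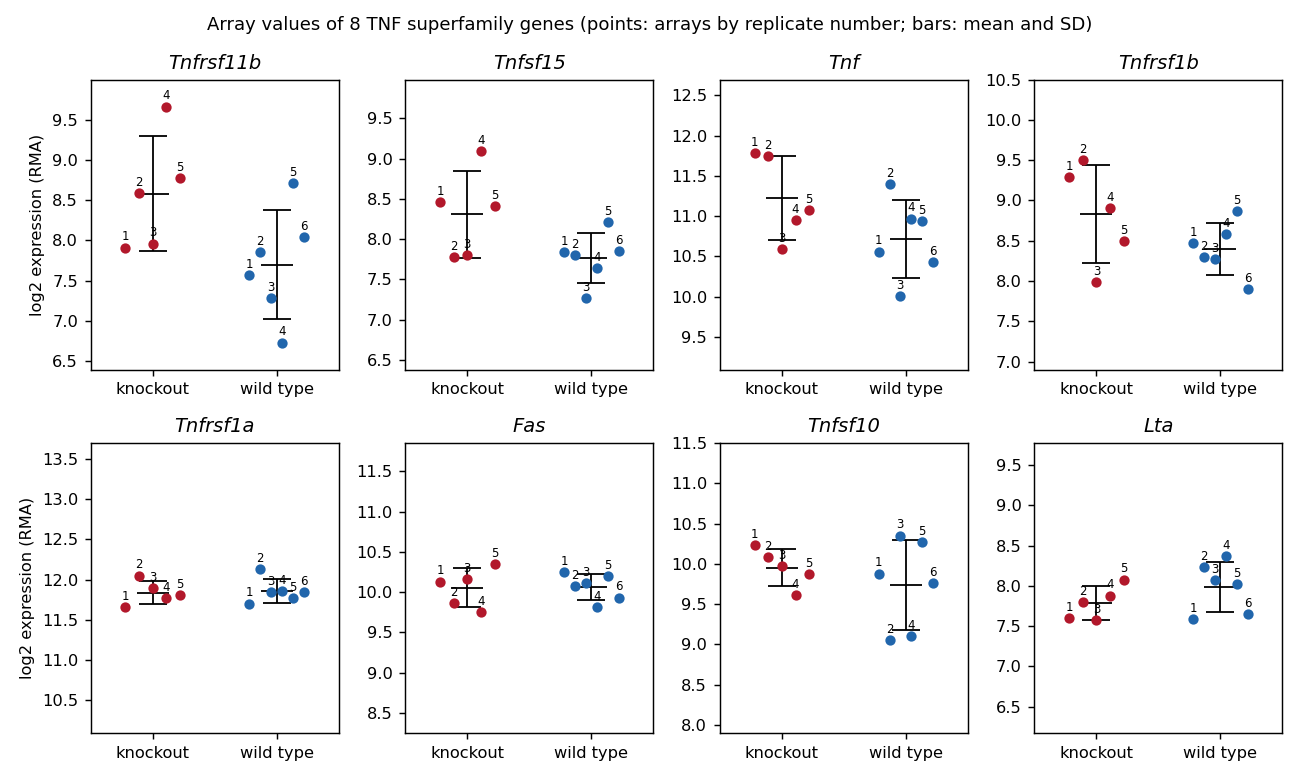
Log2 expression of 8 family genes by array (y axis, RMA units, the same span in each panel), knockout left and wild type right; points are arrays with their replicate number, and bars are means with SD. Knockout array 4 leads Tnfrsf11b (9.66) and Tnfsf15 (9.09), knockout arrays 1 and 2 lead Tnf (11.78 and 11.75) and Tnfrsf1b (9.29 and 9.50), and the genotypes overlap for Tnfrsf1a and Fas.

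Tnfrsf11b encodes osteoprotegerin, a secreted decoy that binds RANKL and TRAIL. It read 7.91, 8.59, 7.96, 9.66 and 8.77 in knockout arrays 1 to 5, against 6.73, 7.71 and 8.71 (lowest, median, highest) in wild type arrays. Each of the 5 knockout values exceeded the wild type mean, with knockout arrays 4 and 5 above every wild type array, and the other 3 within the wild type range. The means were 8.58 ± 0.71 in knockout (SD, n = 5) and 7.70 ± 0.68 in wild type arrays (SD, n = 6), a 1.84-fold higher level (log2 0.88, SE 0.36). The exact permutation p was 0.067 and limma's adjusted p was 0.765, so the call rests on the study's unadjusted rule. The call was lost without knockout array 4 (0.61), knockout array 5 (0.83), wild type array 3 (0.80) or wild type array 4 (0.69).

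Markers of stellate cells, a mesenchymal cell type next to the sinusoid, gave 0 calls among 8, against 1.03% of all clusters. All 8 lay above 0, as did 10207 of all 22206 clusters. The list mean of the stellate markers ran from 8.06 to 9.38 in knockout and from 7.81 to 8.97 in wild type arrays. With this mean as a covariate Tnfrsf11b differed by 0.63 (SE 0.35), with the macrophage mean by 0.69 (SE 0.46) and with the hepatocyte mean by 0.79 (SE 0.48), none of them with p at or below 0.05. With both of the last 2 the value was -0.23 (SE 0.91). The stellate, macrophage and hepatocyte means themselves differed by 0.35, 1.25 and -0.85, knockout minus wild type. These fits therefore cannot tell the part of these cells from genotype, and their part in the level of Tnfrsf11b was not tested.

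The signalling partner of that decoy's ligand, Tnfrsf11a (RANK), read 7.56, 7.80, 7.36, 7.68 and 7.63 in knockout arrays and 7.49, 7.62 and 7.84 (lowest, median, highest) in wild type arrays. Its values overlapped, with a difference of -0.05 (SE 0.11, 95% interval -0.28 to 0.19). Tnfrsf10b, the death domain receptor of TRAIL, read 8.72, 8.50, 9.18, 9.52 and 9.06 in knockout arrays, against 8.33, 8.70 and 9.48 (lowest, median, highest) in wild type arrays. The single knockout value beyond the wild type range was 9.52 in array 4, and the difference was 0.27 (SE 0.22). Of this system of 2 ligands and 3 receptors, Tnfrsf11b alone met the rule.

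Beside Tnfrsf11b, the class of decoy and related receptors held Tnfrsf22, Tnfrsf23 and Tnfrsf26, which stand next to each other in the mouse genome. Tnfrsf22 and Tnfrsf23 are decoys for TRAIL in the mouse. These genes are close relatives, and whether the probes separate them was not checked. Tnfrsf22 read 8.65, 8.84, 9.13, 9.55 and 9.16 in knockout arrays, against 8.12, 8.75 and 9.02 (lowest, median, highest) in wild type arrays. Knockout arrays 3, 4 and 5 lay above every wild type array, with a difference of 0.40 (SE 0.19, exact permutation p = 0.102, n = 5 and 6). Tnfrsf26 and Tnfrsf23 differed by 0.25 (SE 0.28) and 0.15 (SE 0.18). With the macrophage mean as a covariate Tnfrsf22 met the rule (0.65), and with the hepatocyte mean its difference was 0.16. All 4 genes of the class lay above 0, as did 10207 of all 22206 clusters, and all 4 were highest on knockout array 4. Without that array Tnfrsf11b was at 0.61, Tnfrsf22 at 0.28, Tnfrsf26 at 0.02 and Tnfrsf23 at -0.01, so 1 of the 4 no longer lay above 0.

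Neither receptor of TNF met the rule. Tnfrsf1a, the broadly expressed death domain receptor, read 11.66, 12.05, 11.89, 11.77 and 11.81 in knockout arrays, against 11.70, 11.84 and 12.13 (lowest, median, highest) in wild type arrays. Its difference of -0.02 (SE 0.11) had a 95% interval of -0.25 to 0.21, which holds no fold of 1.5. Tnfrsf1b, which lacks a death domain and is prominent on leukocytes and endothelium, read 9.29, 9.50, 7.99, 8.91 and 8.50 in knockout arrays and 7.90, 8.39 and 8.87 (lowest, median, highest) in wild type arrays. Knockout arrays 1, 2 and 4 lay above every wild type array, and the difference was 0.44 (SE 0.25, exact permutation p = 0.149, n = 5 and 6). It met the rule without knockout array 3 (0.65) and was 0.27 without knockout array 2. With the macrophage mean as a covariate it was -0.12 (SE 0.23), and with the hepatocyte mean 0.83 (SE 0.31). The difference between the changes of the 2 TNF receptors was not tested.

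Fas, the death receptor whose stimulation kills hepatocytes in mice, read 10.13, 9.86, 10.16, 9.75 and 10.35 in knockout arrays, against 9.81, 10.09 and 10.25 (lowest, median, highest) in wild type arrays. Ltbr, the lymphotoxin beta receptor, read 9.66, 10.24, 9.49, 9.45 and 9.75 in knockout arrays, against 9.40, 9.81 and 9.97 in wild type arrays. Both sets overlapped, with differences of -0.01 (SE 0.13) and -0.02 (SE 0.16). Tnfrsf21, which encodes the death domain receptor DR6, had the widest spread of the death domain class. It read 7.64, 8.68, 6.79, 7.68 and 7.83 in knockout arrays and 6.58, 7.41 and 8.05 (lowest, median, highest) in wild type arrays, a difference of 0.31 (SE 0.33).

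Tnfrsf12a (Fn14), the receptor of TWEAK, read 11.19, 11.08, 10.81, 10.78 and 10.78 in knockout arrays, against 10.76, 10.92 and 11.38 (lowest, median, highest) in wild type arrays. The BAFF receptor gene Tnfrsf13c read 6.29, 6.45, 6.36, 6.22 and 6.29 in knockout arrays, against 6.18, 6.51 and 6.62 in wild type arrays. Both genes lay inside the wild type range on all knockout arrays, with differences of -0.09 (SE 0.15) and -0.12 (SE 0.11). The other receptors of lymphocyte costimulation and B cell survival (Tnfrsf4, Tnfrsf8, Tnfrsf9, Tnfrsf13b, Tnfrsf14, Tnfrsf17 and Tnfrsf18) and the orphan-like Tnfrsf19 had differences between -0.16 and 0.21. Over the 13 receptors of the class that signals through TRAF adaptors, 4 had positive and 9 negative differences (median -0.02). The 5 death domain receptors had a median of -0.01.

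For most members the arrays of 1 genotype varied more than the genotypes did, and the difference exceeded the SD of both genotypes for 5 members. The SD within a genotype ran from 0.08 to 0.71 with a median of 0.24, and the difference between genotypes was below 0.2 for 24 of the 36. Those 24 include Tnfsf8 and Tnfsf18, at or near background. Knockout array 4 was the highest of the 11 arrays for 7 members above background (Tnfrsf10b, Tnfrsf11b, Tnfrsf13b, Tnfrsf22, Tnfrsf23, Tnfrsf26 and Tnfsf15), and no other array was highest for more than 6. Knockout arrays 1 and 2 were the 2 highest arrays for Tnf, Tnfrsf1b, Tnfrsf9 and Tnfsf9. Knockout array 3 was highest for 0 members. The members that led in knockout arrays thus did so on different arrays.

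**Figure D3:**
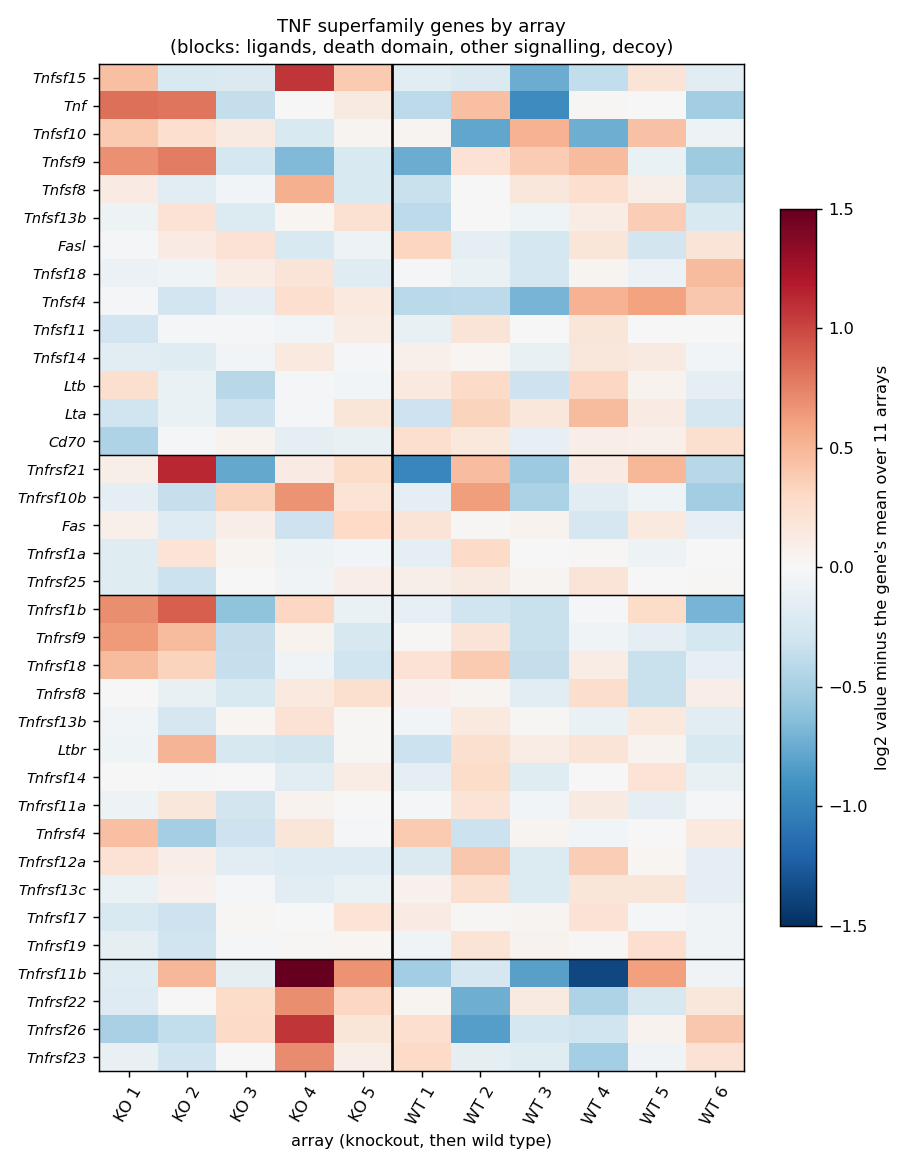
Each row is a family gene and each column an array, knockout left of the line and wild type right; the colour is the log2 value minus the gene's mean over 11 arrays. Knockout arrays 1 and 2 are red for Tnf, Tnfsf9, Tnfrsf1b and Tnfrsf9, and knockout array 4 for Tnfsf15, Tnfrsf10b, Tnfrsf11b, Tnfrsf22, Tnfrsf26 and Tnfrsf23.

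Some family genes are neighbours in the RefSeq table, and their differences are given where all were above background on every array. Tnfrsf26, Tnfrsf22 and Tnfrsf23 stood at 0.25, 0.40 and 0.15, on the same side of 0. Tnfrsf1b (0.44) stood beside Tnfrsf8 (0.01), and Tnfrsf4 (-0.07) beside Tnfrsf18 (0.04). Whether neighbours shared a direction more often than other genes was not tested.

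Another measure split the arrays. The mean of the intron control rows, probe sets placed in introns of control genes, was 5.75 to 5.96 on 4 arrays (knockout arrays 3 and 4, wild type arrays 1 and 6) and 5.05 to 5.38 on the other 7. With genotype in the limma fit, 5 members differed between these arrays at an adjusted p of 0.05 (13.9%), against 18.5% of all clusters, so the family did not stand out. Tnfrsf26 (0.77, SE 0.19) and Tnfrsf23 (0.46, SE 0.14) were higher on the 4 arrays, and Tnfsf9 (-0.88, SE 0.18), Tnfrsf21 (-0.82, SE 0.25) and Ltbr (-0.42, SE 0.12) were lower. Tnfsf9 read 6.49 to 6.98 on the 4 arrays and 7.01 to 8.01 on the other 7. Ltbr read 9.40 to 9.50 on the 4 arrays and 9.66 to 10.24 on the others. Genotype was spread over both sets, and with the intron control mean as a covariate the genotype difference was 0.87 for Tnfrsf11b, 0.53 for Tnfsf15, 0.54 for Tnf and 0.47 for Tnfrsf1b. Within the 7 arrays of low intron signal (3 knockout, 4 wild type) Tnf (0.71) and Tnfrsf1b (0.59) met the rule and Tnfrsf11b (0.78) did not. The remaining 4 arrays hold 2 of each genotype and were not fitted alone.

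**Figure D4:**
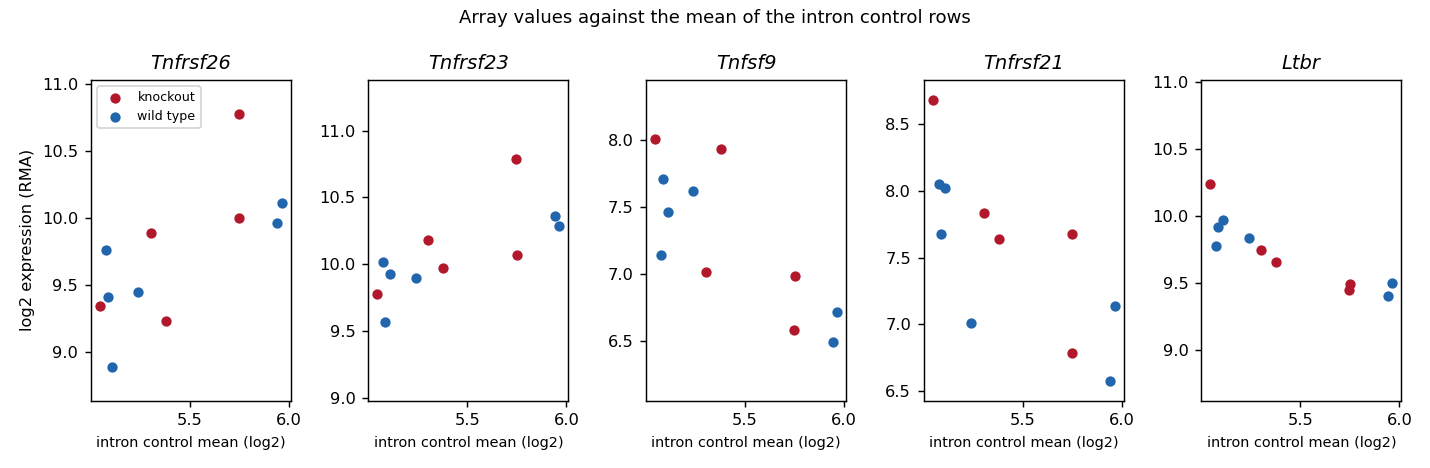
Log2 expression of 5 family genes (y axis) against the mean of the intron control rows of the array (x axis, log2 units); points are arrays, coloured by genotype. On the 4 arrays with intron means of 5.75 to 5.96, Tnfrsf26 and Tnfrsf23 read higher and Tnfsf9, Tnfrsf21 and Ltbr lower than on most of the others.

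Downstream of the receptors, 27 adaptors, kinases and ubiquitin regulators were measured and 0 met the rule, against 1.03% of all clusters. In limma 1 of them (3.70%) had an unadjusted p of at most 0.05, against 6.39% of all clusters. Of the 27 genes 25 lay above 0, against 10207 of 22206 clusters, and the median was 0.15. Traf5, an adaptor of costimulatory receptors, differed by 0.39 (SE 0.17), Ikbkg, the regulatory subunit of the IKK complex, by 0.29 (SE 0.14), the necroptosis kinase Ripk3 by 0.32 (SE 0.17) and Traf1 by 0.48 (SE 0.28). Traf5, Ikbkg and Ripk3 exceeded their wild type mean in 5 of 5 knockout arrays, and Traf1 in 3 of 5. Traf1 met the rule without knockout array 3 (0.67) or knockout array 5 (0.64), and with the macrophage mean as a covariate it was -0.05. With the same covariate Traf5 stood at 0.06, Ikbkg at 0.20 and Ripk3 at 0.41. In that fit 6 genes of the list met the rule, Birc2, Cyld, Map3k7, Tab3 and Tank as higher and Rbck1 as lower. With the hepatocyte mean Traf1 (0.90) and Traf5 (0.68) met the rule. The share of all clusters that met the rule in these covariate fits was not counted. Without knockout array 2 Traf5 was at 0.22.

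Among 10 genes of ligand shedding and membrane processing 0 met the rule, against 1.03% of all clusters. In limma 0 of them had an unadjusted p of at most 0.05, against 6.39% of all clusters. The median difference over the 10 genes was 0.15. Adam17, the protease that releases soluble TNF, differed by 0.29 (SE 0.20), its partner Rhbdf2 (iRhom2) by 0.34 (SE 0.21), and Sppl2a, an intramembrane protease that cleaves TNF stubs, by 0.36 (SE 0.21). Mmp7 was above background on 0 of 5 knockout and 3 of 6 wild type arrays, and no difference is given for it.

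A further 10 family genes and relatives that carry other symbols gave 0 calls, against 1.03% of all clusters. In limma 1 of the 10 had an unadjusted p of at most 0.05 (10%), against 6.39% of all clusters. Cd40, a costimulatory receptor, was above the wild type mean in all 5 knockout arrays, with means of 9.30 ± 0.26 in knockout (SD, n = 5) and 8.80 ± 0.25 in wild type arrays (SD, n = 6). That difference of 0.50 (SE 0.15, exact permutation p = 0.015) was under a fold of 1.5. With the macrophage mean as a covariate it was 0.25, and with the macrophage and hepatocyte means together 0.02. Cd40 met the rule with the hepatocyte mean (0.63) and within the arrays of low intron signal (0.59). The share of all clusters that met the rule in these fits was not counted. The ectodysplasin genes Eda and Edar lay at -0.13 (SE 0.12) and -0.16 (SE 0.14), and Eda2r at 0.39 (SE 0.38).

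Of 27 genes known to be induced by TNF, 4 met the rule as higher and 0 as lower (14.8%), against 0.671% and 0.356% of all clusters, with a median of 0.16. They were Ccl2 (0.78, SE 0.19), Il6 (1.49, SE 0.36), Cxcl2 (0.69, SE 0.19) and Tnfaip2 (0.71, SE 0.26), which other stimuli also induce and of which earlier results were known when the list was written. Cxcl2 lost the call without knockout array 1 (0.57) and Tnfaip2 without knockout array 2 (0.55). With the macrophage mean as a covariate 1 of the 4 still met the rule, Ccl2 at 0.77, while Il6 was at 0.72, Cxcl2 at 0.42 and Tnfaip2 at 0.08. With the hepatocyte mean 5 genes of the list met it, and Ccl2 was at 0.76, Il6 at 2.17, Cxcl2 at 0.90 and Tnfaip2 at 1.31. The share of all clusters that met the rule with either covariate was not counted.

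**Figure D5:**
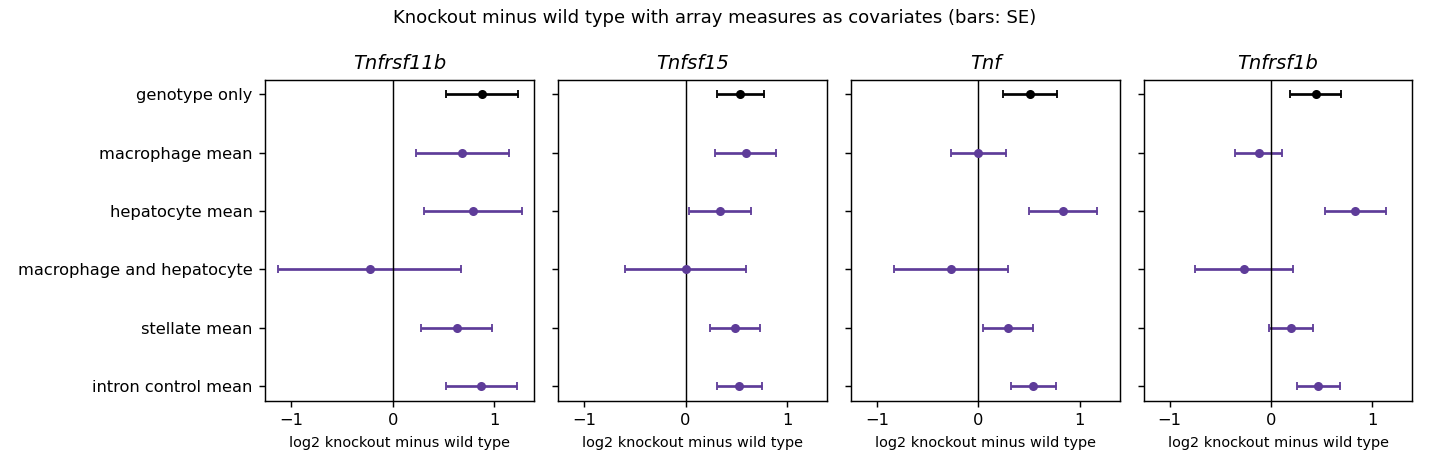
Log2 difference, knockout minus wild type, of Tnfrsf11b, Tnfsf15, Tnf and Tnfrsf1b (x axis) in limma fits with the array measure named on the y axis as a covariate; points are estimates and bars SE. Tnf and Tnfrsf1b lie near 0 with the macrophage mean (0.001 and -0.12) and at 0.83 with the hepatocyte mean, while with the intron control mean the 4 genes stand at 0.87, 0.53, 0.54 and 0.47. The macrophage mean is itself higher, and the hepatocyte mean lower, in knockout arrays on average.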

How the data were processed

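Total RNA of LSEC was extracted with Trizol and 100 ng was biotin-labelled for the arrays, per the labels' protocols. The authors deposited log2 expression values, made with Affymetrix Expression Console and RMA per the submitters' processing notes, whose versions are not named there. RMA equalizes the arrays' distributions, so shared shifts are removed and weak signals compressed. The log2 scale was read from the values (2.15 to 13.79). The genome build of the clusters, the scan dates and the way the cells were isolated are not given in the sources used here.

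Arrays were grouped by title. Tests covered 22206 transcript clusters, without the 6640 control rows, and the platform annotation named 19572 clusters by 1 symbol, 0 by several and 2634 by none. The brightest cluster per symbol was used, and all 36 members matched RefSeq symbols. The genotype was the single term of linear models fitted with limma 3.58.1 (R 4.3.3; moderated by eBayes, Benjamini-Hochberg over all clusters), and the code was tested on simulated data. Exact permutation tests were two-sided over 462 splits, with a smallest p of 0.0022. Background was the mean of 23 antigenomic rows per array. The members, lists and tests were chosen with earlier results of these data known. Array values were given for members that met the study's rule or had an unadjusted p of at most 0.05. They were also given for the 7 measured members with other symbols and for chosen genes of the TNF, TRAIL, RANKL, TWEAK and BAFF systems. The chosen genes were Tnfsf10, Tnfsf11, Tnfsf13b, Tnfrsf1a, Tnfrsf1b, Tnfrsf10b, Tnfrsf11a, Tnfrsf11b, Tnfrsf12a and Tnfrsf13c. Tnfrsf21, Tnfrsf22 and Tnfrsf25 were added after their values were seen. For each pathway list the 4 genes of smallest p were named. Alternatives were single arrays left out, a replicate block, other normalizations, array weights, another variance model, marker and intron means as covariates, all clusters of a symbol, a background filter and other thresholds. The stellate covariate and the split by intron signal were added after seeing the data. The number of arrays limits the precision.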

Additional observations from a re-analysis of the deposited data

Results flagged for a closer look

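Among 96 checks of single arrays within a genotype, 2 gave an array far from the rest of its group, and chance gives about 1 in 20. Tnfrsf1a was highest on wild type array 2 at 12.13, where the next wild type array read 11.86 and the lowest 11.70. The dendritic cell marker mean was lowest on knockout array 3 at 5.12, where the other knockout arrays read 5.54 to 5.65.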

How the results depend on the processing

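The count of members at an adjusted p of 0.05 in limma was 0 under all 25 alternative fits, with a smallest adjusted p of 0.203. The count by the study's rule, 1 in the fit reported, ran from 0 to 4 with single arrays left out: 0 without knockout array 4 or 5 or wild type array 3 or 4, and 4 without knockout array 3. It was 2 with the hepatocyte mean as a covariate, 0 with the stellate mean, 2 within the arrays of low intron signal, 2 at a fold of 1.2 and 3 with no fold. It was 1 with the replicate block, where Tnfrsf11b stood at 0.95 and Tnf at 0.45, and no call of a member changed under it. Deviations of arrays with the same replicate number correlated at -0.32 to 0.39. Whether the numbers mark a shared batch or pairing was not tested. Tnfrsf11b turned to -0.23 and Tnfrsf21 to -1.15 (called lower) with the macrophage and hepatocyte means together. Over all fits 9 members kept their sign and 27 turned in at least 1. The count for adaptors and kinases, 0 as reported, ran from 0 to 1 with arrays left out and was 6 with the macrophage mean, 2 with the hepatocyte mean and 2 with the stellate mean. The count for shedding genes was 2 with the macrophage mean, against 0. For TNF-induced genes the count of 4 became 2 with array weights, 1 with the macrophage mean and 0 with both means. For the family genes with other symbols the count was 1, against 0, in several fits, and the gene differed. It was Eda2r with the macrophage or the stellate mean, and Cd40 with the hepatocyte mean or within the arrays of low intron signal. With the macrophage and hepatocyte means together it was Ngfr, as lower. The causes were not tested, and the share of all clusters that met the rule was not counted under the alternative fits. All members have 1 cluster, so averaging clusters left their values as they were, and the background filter dropped 3 members, each not called. The count by intron signal was 5 with and without genotype in the model.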
